A study of Mus musculus with 2 samples.

Results

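The microRNAs (miRNAs) of the imprinted Dlk1-Dio3 locus were examined on 2 mouse miRNA arrays. Members were taken from the gene names of the array files by a list of miRNA numbers known to belong to the locus, with any letter or arm suffix. The rule uses no measured value, but it was chosen with earlier results of these data known. By this rule 103 of the 1247 mouse miRNAs on the array were members, from 53 hairpin names, and they were covered by 273 of 3101 probes. Cartilage peeled from the knee joint of male 8-week-old mice was compared between 1 sample labelled control, with the genotype wildtype, and 1 sample labelled Col2a1Tsc1KO, with the genotype given as Col2a1 and Tsc1 KO. The series describes the deletion of Tsc1 as specific to Col2a1, the gene of the main collagen of cartilage, and asks how stimulation of mTORC1, which the Tsc1 product restrains, relates to miRNAs in osteoarthritis. The sources used here do not give the number of mice behind each sample, and Tsc1 itself cannot be checked on a miRNA array. Each group had 1 array, so every difference stated below is a difference between 2 arrays without a replicate check, and no p-value was computed.

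In the Dlk1-Dio3 domain the protein-coding genes Dlk1, Rtl1 and Dio3 are expressed from the paternal chromosome, and the noncoding RNAs Meg3, Rian and Mirg and the miRNAs between them from the maternal one. A miRNA guides repression of messenger RNAs mainly through its seed, the bases 2 to 8 from its 5′ end. The miRNAs of this locus are known for high levels in the embryo, the placenta and the brain.

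A miRNA is called detected here where more than 50% of the usable spots of at least 1 of its probes carry the scanner software's mark for a signal well above background, and not detected means not well above background by this rule. Of the 103 members, 12 were detected on at least 1 array. Their mature sequences identify what was measured, and each is shown 5′ to 3′ with the seed in capitals, as RefSeq gives it for GRCm38.p6.
miR-127-3p: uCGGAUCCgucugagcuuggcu
miR-434-3p: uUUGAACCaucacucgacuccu
miR-341-3p: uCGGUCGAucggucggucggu
miR-1188-3p: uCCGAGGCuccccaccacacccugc
miR-370-3p: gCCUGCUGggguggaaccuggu
miR-379-5p: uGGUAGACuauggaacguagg
miR-299b-5p: gGUUUACCgucccacauacau
miR-329-3p: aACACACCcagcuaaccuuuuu
miR-494-3p: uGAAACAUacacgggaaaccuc
miR-300-3p: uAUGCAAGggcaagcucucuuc
miR-134-5p: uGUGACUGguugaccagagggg
miR-154-5p: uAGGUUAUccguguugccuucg

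The 12 seeds all differed. Over the 99 members with a RefSeq mature sequence there were 91 distinct seeds, of which 8 were each shared by a pair of members. Among the 12, miR-379-5p shared its seed with miR-1193-5p, a member not detected on either array, with probe medians of -5.60 for control and -5.86 for the knockout. miR-329-3p shared its seed with miR-362-3p, which lies outside the locus and was detected on the knockout array alone. The median GC content of the mature sequence was 50% both in the 12 and in the 87 other members with a sequence. The range was 40.9 to 72% in the 12 and 23.8 to 76.2% in the others.

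For most of the 12, the part of the miRNA that the longest probe pairs with shared a longest run of 7 to 11 bases with another mouse miRNA. Where the target is short, such a run covers much of it. It was 10 of 13 bases for miR-134-5p (shared with miR-758-5p) and 10 of 14 for miR-1188-3p (shared with miR-5622-5p). Neither of these partners was detected. For miR-494-3p it was 9 of 15 bases, shared with miR-6959-5p, and for miR-127-3p 10 of 18, shared with miR-6546-5p. miR-6959-5p and miR-6546-5p were not among the miRNAs named on the array, so their levels are not known here. miR-299b-5p and miR-300-3p had longer runs, and the sequences they resemble are shown for that reason.
miR-299a-5p: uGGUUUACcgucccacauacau
miR-381-3p: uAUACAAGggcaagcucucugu
The probe target of miR-299b-5p, 20 bases long, lies wholly within miR-299a-5p, so the signal of this probe could come from either RNA. miR-299a-5p lies next to it on the plus strand (chr12:109710644-109710665) and was not among the miRNAs named on the array. miR-300-3p shares a run of 16 bases with miR-381-3p, which had its own probes and was not detected on either array.

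RefSeq placed 98 members on chromosome 12, where they span 180 kb (chr12:109563710-109743784, GRCm38.p6), and 1 member, miR-496b, on chromosome 19, outside the locus. The other 4 members, miR-376c-3p, miR-485-5p, miR-487b-3p and miR-539-3p, had no match by name and are counted by name alone. Along the chromosome the members fell into 4 groups, the miR-770 hairpin in Meg3, a group of 20 within the span of Rtl1, a group of 6 within Rian, and a cluster of 70 placed members running from miR-379 to miR-410, of which 17 lie within the span RefSeq gives for Mirg. Of the 98 members placed on chromosome 12, 96 are encoded on the plus strand and the arms of miR-299b on the minus strand.

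The software marked spots from an unscaled intensity of 21.9 upward for control and from 20.3 upward for the knockout. By the 50% rule 5 members were detected on both arrays, against a background of 20.6% of all miRNAs, so the members' share of 4.85% was lower. A further 5 members were detected on the knockout array alone, where the background was 3.13%, and 2 on the control array alone, where it was 1.92%. At least 1 array detected 11.7% of the members, compared with 25.7% of all miRNAs. The remaining 91 members, 88.3%, were not detected on either array.

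The rule rests on counts of marked spots, so the spot shares are not separate evidence. On the control array 146 of 3917 usable member spots were well above background, 3.73%, while 20.7% of the spots of all other miRNAs were. In the knockout it was 269 of 3977 member spots, 6.76%, against 21.7% for the others. The share of spots well above background was higher on the knockout array for 11 members, against a background of 9.46%, and lower for 2 members, against a background of 5.93%. For 90 members it was equal, 89 of them having no such spot on either array. No member spot was saturated.

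**Figure D1:**
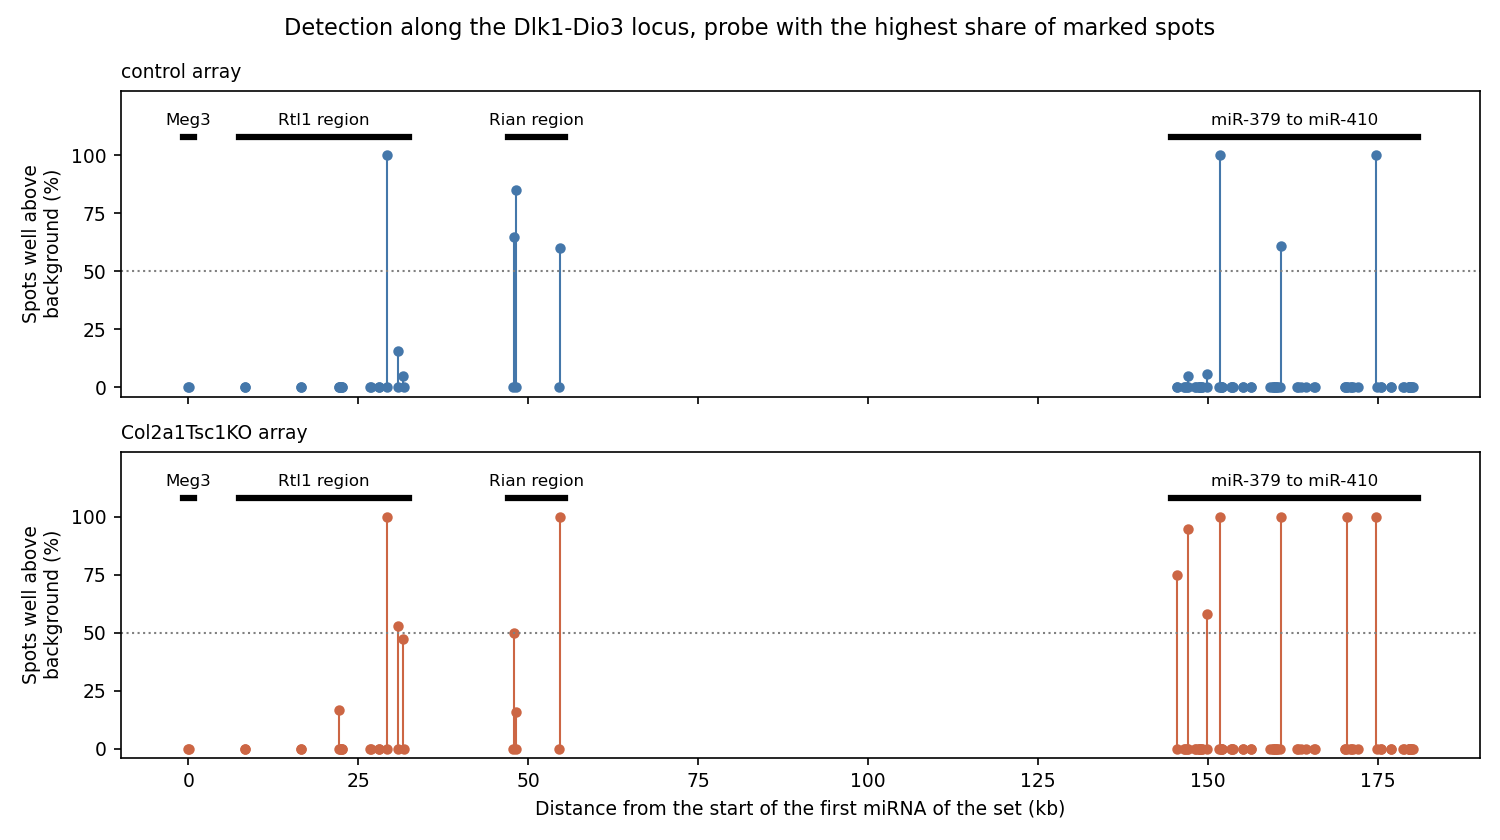
Percent of usable spots well above background for the best probe of each of the 98 members placed on chromosome 12, against distance in kb from the start of the first member, with the control array above, the Col2a1Tsc1KO array below, the 50% rule as a dotted line and the 4 groups of the locus as bars. Members over the line lie in the Rtl1, Rian and miR-379 to miR-410 groups, 7 for control and 10 for the knockout, and most other members sit at 0.

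Neither arm of miR-770, the hairpin within Meg3, was well above background, and none of their spots was. miR-770-3p had 40 usable spots in the control and 39 in the knockout.

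Of the 20 members in the Rtl1 region, a group that includes the hairpins opposite the paternally expressed Rtl1 messenger, 2 were detected on at least 1 array. miR-127-3p (chr12:109592888-109592909) is processed from the transcript antisense to Rtl1 and guides the cleavage of Rtl1 RNA. All spots of its 18-base probe were well above background, with unscaled intensities of 41.5 to 55.4 around a median of 47.05 over 16 spots on the control array. In the knockout they ran from 53.1 to 72.2 around a median of 62.0 over 19 spots. The knockout spots were mostly higher before scaling, although the ranges overlapped. Scaling of each array to its 75th percentile over 476 probes, which lowered the knockout values by 0.41 on the log2 scale relative to the control, left a difference of -0.03 ± 0.04 (log2, knockout minus control, SE over spots). The second probe of miR-127-3p, 17 bases long, was marked on 0 of 19 control spots and 9 of 20 knockout spots, so it did not enter that value.

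miR-434-3p (chr12:109594565-109594586), from the neighbouring hairpin that also pairs with Rtl1, was detected on the knockout array alone. Its 18-base probe was marked on 3 of 19 control spots, with intensities of 12.7 to 27.2 and a median of 17.9. On the knockout array 10 of 19 spots were marked, with intensities of 16.6 to 26.2 and a median of 20.7. The probe's difference was 0.18 without scaling and -0.23 ± 0.08 after it, which is lower on the knockout array. The ranges overlapped almost wholly, and the knockout value was the one closest above the rule, at 52.6% of spots. miR-136-5p, another Rtl1-antisense miRNA, fell just below it. Its longer probe was marked on 1 of 20 control spots, with a median intensity of 14.85, and on 9 of 19 knockout spots, with a median of 19.9. miR-337-3p had 2 of 12 spots of 1 probe marked on the knockout array and 0 of 13 on the control array. For miR-665-3p no spot was marked on either array.

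In the Rian region 3 of 6 members were well above background, and 2 of them, the arms miR-341-3p and miR-1188-3p, were so on the control array alone. These hairpins lie close together, at 47.8 and 48.2 kb from the start of the first member. miR-1188-3p (chr12:109611877-109611901) had 17 of 20 control spots marked on its 14-base probe, with intensities of 17.7 to 40.0 and a median of 30.6. In the knockout 3 of 19 spots were marked, with a median intensity of 15.5 and a highest spot of 23.0. Only the ends of the ranges overlapped. The signal was at least 1.97-fold higher on the control array after scaling and at least 1.48-fold higher without scaling. Here a bound sets the bright array's mean against the higher of the dim probe's own mean and the lowest detected probe of the dim array.

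miR-341-3p (chr12:109611556-109611576) had 13 of 20 control spots marked on its 15-base probe, with intensities of 16.0 to 34.3 and a median of 23.9. In the knockout 10 of 20 spots were marked, exactly the 50% that the rule leaves out, with intensities of 11.6 to 30.7 and a median of 20.25. The ranges overlapped over most of their length. The 14-base probe was marked on 5 of 19 control spots and 0 of 20 knockout spots. The knockout mean of the 15-base probe lay just above the lowest detected probe, so its bound equals the measured difference. That was 1.61-fold higher on the control array after scaling (-0.68 ± 0.11) and 1.21-fold without it.

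miR-370-3p (chr12:109618305-109618326), a miRNA known to target the fatty acid oxidation enzyme Cpt1a, was detected on both arrays, and its probes differed. The 15-base probe was marked on 12 of 20 control spots, with a median intensity of 23.9 between 12.6 and 35.9, and on 20 of 20 knockout spots, with a median of 28.55 between 20.6 and 34.4. Its scaled difference was -0.13 ± 0.10. The 14-base probe was marked on 1 of 19 control spots, with a median of 14.5, and on 19 of 19 knockout spots, with a median of 29.1. The shorter probe thus passed the rule on the knockout array alone, while the longer one gave overlapping ranges on both.

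**Figure D2:**
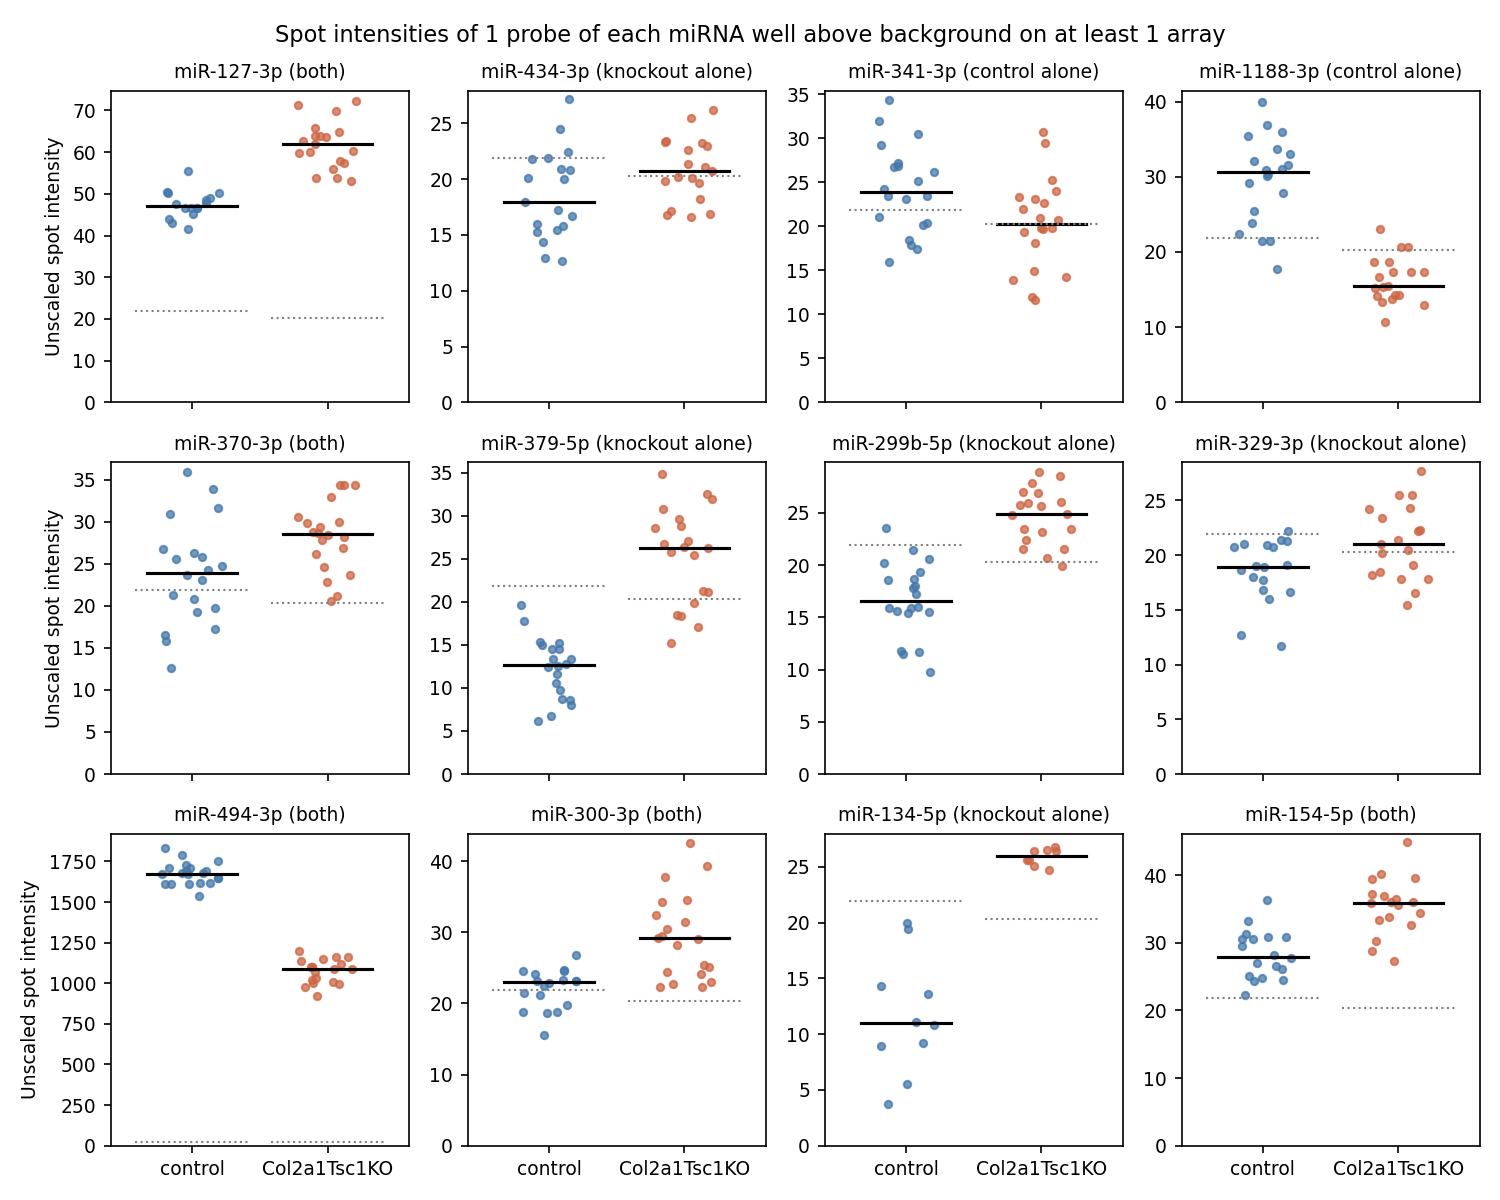
Unscaled background-subtracted intensity of every usable spot of 1 probe for each of the 12 miRNAs detected on at least 1 array, control beside Col2a1Tsc1KO, with the median as a black line and the lowest marked spot (21.9 for control, 20.3 for the knockout) as a dotted line. The spots of miR-494-3p separate downward and those of miR-134-5p upward on the knockout array, while most other panels overlap.

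Of the 70 members placed in the miR-379 to miR-410 cluster, 7 were detected on at least 1 array, 3 on both and 4 on the knockout array alone. None was so on the control array alone. The brightness of miR-494-3p (chr12:109715367-109715388) put it far above the threshold in both samples. The 14-base probe gave 3310 to 3710 around a median of 3440 over 19 control spots, and 2120 to 2660 around a median of 2365 over 20 knockout spots. The 15-base probe gave 1540 to 1830 around a median of 1675 on the control array and 920 to 1200 around a median of 1090 on the knockout array. Neither probe's ranges overlapped between the arrays, and every spot was lower on the knockout array. Over both probes the difference was -1.01 ± 0.02 after scaling, which is 2.01-fold lower on the knockout array, and -0.60 without scaling.

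Counts of 2-fold differences covered the 5 members detected on both arrays. miR-494-3p was the 1 of these at least 2-fold lower, where the background was 17.5% of the 257 miRNAs measured on both arrays. Of the same 5, 0 were at least 2-fold higher, where the background was 15.6%. Without scaling none of these 5 passed 2-fold in either direction. The split over all miRNAs then moved from 40 higher and 45 lower to 59 higher and 13 lower. Members detected on 1 array alone were left out of these counts. Among them, the 14-base probe of miR-1188-3p was at -1.26 after scaling, and the 11-base probe of miR-134-5p at 1.33 without scaling. The difference of miR-494-3p was below 0 under all 14 other settings tried, from -1.47 to -0.50, and passed 2-fold in 4 of them.

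miR-154-5p (chr12:109738438-109738459) and miR-300-3p (chr12:109724363-109724384) were the other cluster members detected on both arrays. All 18 spots of the 20-base probe of miR-154-5p were marked on each array, with intensities of 22.3 to 36.3 and a median of 27.95 on the control array, and of 27.3 to 44.9 and a median of 35.95 on the knockout array. The ranges overlapped, and the scaled difference was -0.08 ± 0.06. The 19-base probe of miR-154-5p was marked on 7 of 19 control spots and 16 of 20 knockout spots. It passed the rule on the knockout array alone, so it did not enter that value, and its own scaled difference was -0.23 ± 0.09. The 18-base probe of miR-300-3p was marked on 11 of 18 control spots, with a median intensity of 23.0 between 15.6 and 26.8. In the knockout it was marked on 20 of 20 spots, with a median of 29.15 between 22.3 and 42.5. Its scaled difference was -0.01 ± 0.08. Like miR-127-3p, both were brighter on the knockout array before scaling. On the probe detected on both arrays, they were close to a difference of 0 after it.

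**Figure D3:**
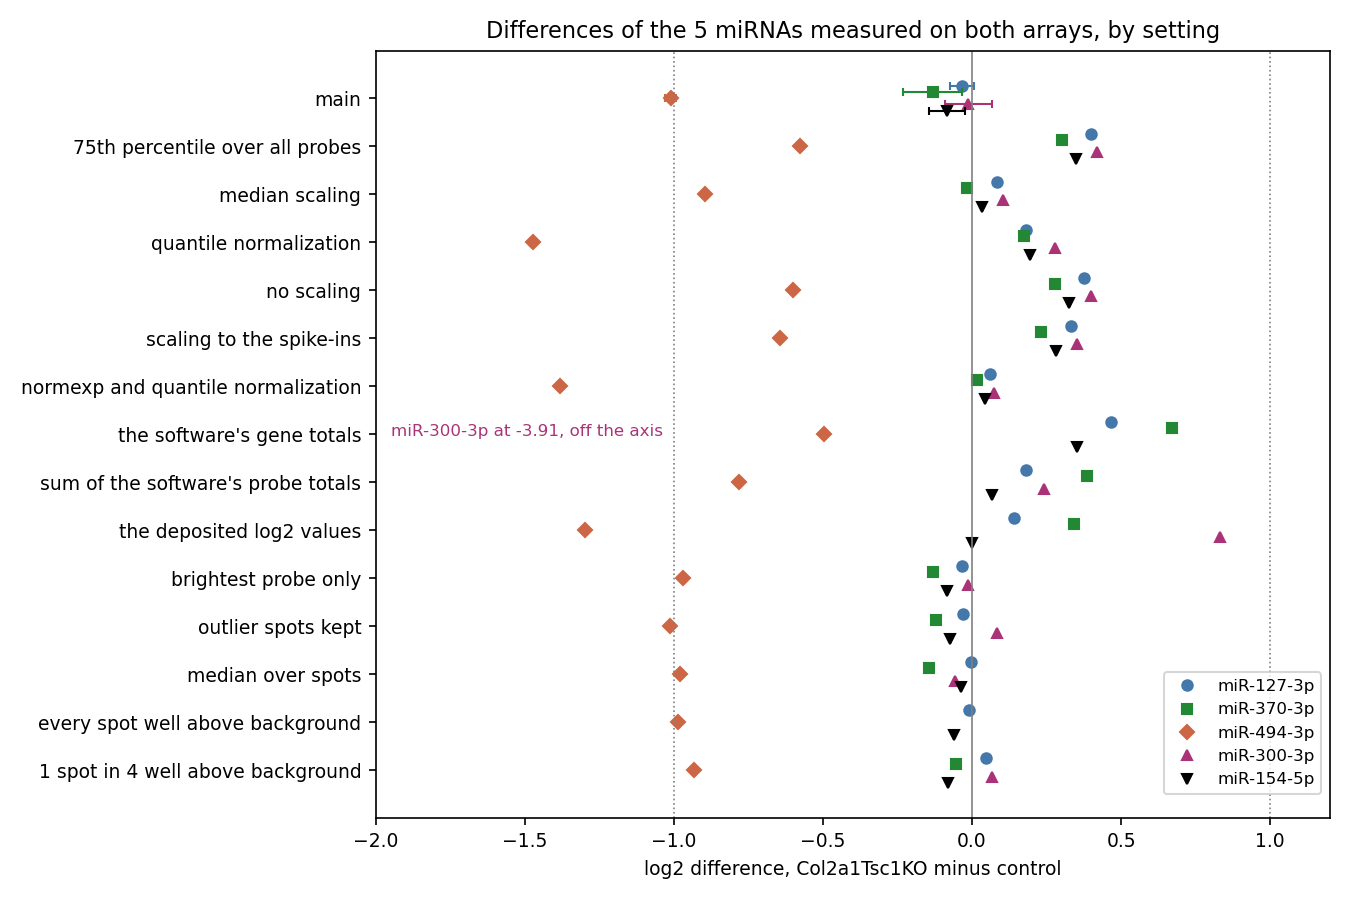
Log2 difference, knockout minus control, of the 5 miRNAs detected on both arrays under each setting tried, with the SE over spots as error bars at the reported setting and dotted lines at a 2-fold change. miR-494-3p is below 0 throughout, whereas the other 4 cross 0 between settings, and miR-300-3p at -3.91 with the software's gene totals lies off the axis.

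The median difference over these 5 members was -0.08, and over all 257 miRNAs measured on both arrays it was -0.22. Without scaling the members' median was 0.33. The sign for miR-127-3p, miR-154-5p, miR-300-3p and miR-370-3p changed with the scaling, and for some of them with the choice of spots or probes, and no direction is given for them.

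Of the members detected on the knockout array alone, miR-134-5p (chr12:109734145-109734166), known from neurons for limiting the size of dendritic spines, had the clearest separation of spots. None of the 40 control spots of its 4 probes was marked, against 29 of 38 knockout spots. The 11-base probe gave 7.17 to 17.7 around a median of 12.0 over 10 control spots, and 23.4 to 34.9 around a median of 29.45 over 10 knockout spots. The 13-base probe gave medians of 10.95 and 26.0, the 12-base probe 9.65 and 22.3, and the 10-base probe 6.825 and 17.65. The control and knockout ranges of all 4 probes were apart. The bound was at least 1.22-fold higher in the knockout without scaling, and no bound above 1 was left after scaling. This bound puts the control at its lowest detected probe, above the control values of these probes. Their own scaled differences, from unmarked control spots, were 0.92 (11-base), 0.94 (12-base), 0.90 (13-base) and 1.19 (10-base).

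miR-379-5p (chr12:109709065-109709085), the first miRNA of the cluster, had 0 of 20 control spots marked on its 16-base probe, with intensities of 6.18 to 19.6 and a median of 12.7. On the knockout array 15 of 20 spots were marked, with intensities of 15.2 to 34.8 and a median of 26.3. The ranges overlapped between 15.2 and 19.6. Its bound was at least 1.15-fold higher in the knockout without scaling, with none above 1 after it. The scaled difference of the probe itself, from unmarked control spots, was 0.65 ± 0.13. Over both probes of miR-379-5p, 0 of 39 control spots and 15 of 37 knockout spots were marked. No spot of the 15-base probe was thus marked, and the detection rests on the 16-base probe alone.

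The 20-base probe of miR-299b-5p (chr12:109710673-109710693, minus strand) was marked on 1 of 20 control spots, with a median intensity of 16.6 between 9.74 and 23.6. It was marked on 18 of 19 knockout spots, with a median of 24.9 between 19.9 and 28.9. The bound without scaling was at least 1.14-fold higher in the knockout, and none above 1 was left after scaling. The scaled difference of the probe itself was 0.18 ± 0.08. The 19-base probe was marked on 0 of 20 control spots and 1 of 20 knockout spots. Its scaled difference, from spots mostly unmarked, was -0.16 ± 0.17, so the 2 probes differed in sign. As the target of the 20-base probe is contained in miR-299a-5p, the signal of that probe cannot be assigned to either strand.

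miR-329-3p (chr12:109713541-109713562), which with miR-134-5p is known from activity-dependent dendrite growth in neurons, was close above the rule in the knockout. Its 20-base probe was marked on 1 of 18 control spots, with a median intensity of 18.95 between 11.7 and 22.2, and on 11 of 19 knockout spots, with a median of 21.0 between 15.4 and 27.7. The ranges overlapped over most of their length, and the bound was not above 1 with or without scaling. On this probe miR-329-3p had a difference of 0.19 without scaling and -0.22 ± 0.08 after it, which is lower on the knockout array. Its seed partner miR-362-3p had a best-probe median of 20 in the control and 49.2 in the knockout.

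The mark itself began at different intensities on the arrays, and this bore directly on the miRNAs counted on the knockout array alone. With the control array's unscaled threshold of 21.9 used on both arrays, 3 of the 5 remained, and miR-329-3p and miR-434-3p were lost. With that threshold carried over after scaling, which put it at 29.1 on the knockout array, 0 of the 5 remained. Then miR-127-3p, miR-154-5p and miR-494-3p were left on both arrays, and miR-300-3p and miR-370-3p joined the 2 miRNAs of the control array alone. Both thresholds were chosen after the data were seen.

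Of the other cluster members, miR-382-5p, miR-382-3p, miR-411-5p, miR-377-3p and miR-376b-5p were those next in order of signal, and none of their spots was marked on either array. Beyond the 10 undetected members with the highest shares of marked spots or signals, the other 81 members had no marked spot, and their probe medians ran from -8.62 to 12.4. The spots of all 91 undetected members had median intensities of -1.47 (control) and -0.90 (knockout), with 90% of spots below 5.81 and 6.56. The arrays' negative-control spots had medians of 5.02 and 4.93 and 90% of spots below 10.2 and 9.84. By both of these measures the undetected members lay below the negative controls, and low levels of these miRNAs were not detectable rather than shown to be missing.

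**Figure D4:**
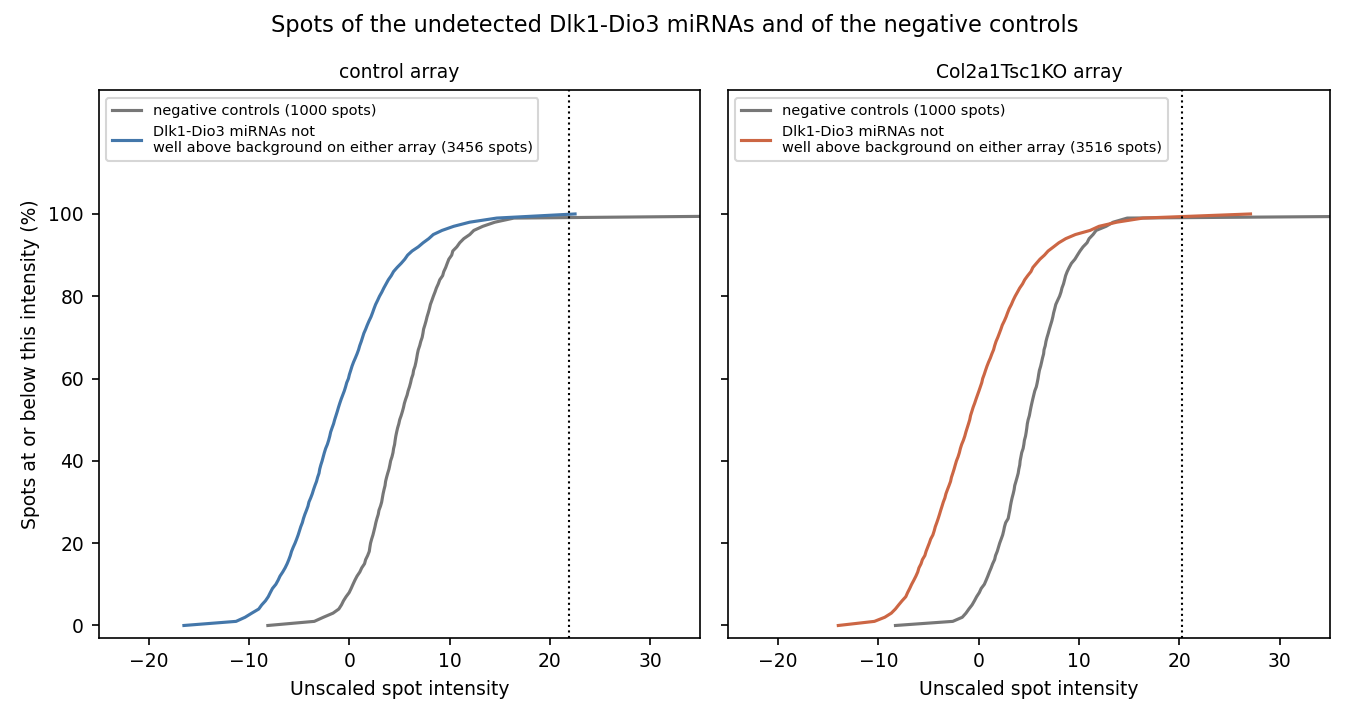
Cumulative percent of spots against unscaled intensity for the undetected members and the negative-control spots of each array, with the lowest marked spot as a dotted line. The undetected members lie to the left of the negative controls over most of both curves, but on the knockout array they lie to the right at the top, with a 99th percentile of 16.4 against 14.8, and their highest spots reach 22.5 for control and 27.1 for the knockout.

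Each of the 12 miRNAs came from a different hairpin, with 8 from the 3p arm and 4 from the 5p arm. The opposite arm was on the array for all 12. No spot of an opposite arm was marked on either array, and the highest probe median among them was 13.8, for miR-1188-5p.

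Between the first and the last member the array held 9 further mouse miRNAs that the number list does not include. miR-3070b-3p was the 1 of these well above background. All 39 of its control spots and all 38 of its knockout spots were marked, and its best probe had a median of 355 (316 to 372) in the control and 186 (173 to 203) in the knockout, without overlap. Its difference over 3 probes was -1.26 ± 0.02. This miRNA, placed at the locus by the array file alone, and miR-494-3p were thus both lower on the knockout array, while the other 8 were not well above background.

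The labelled tissue was checked against miRNAs that mark cell types. All 4 chondrocyte miRNAs, the arms of miR-140 and miR-455, were detected on both arrays, with scaled differences of -0.03 to 1.71 and a summed unscaled brightest-probe signal of 2875 for control and 8446 for the knockout. All 4 skeletal muscle miRNAs were too, with differences of -0.996 to 0.05 and sums of 2831 and 2021, as were all 4 leukocyte miRNAs, with differences of -1.17 to 0.64 and sums of 12719 and 8243. The 2 red cell miRNAs on the array had sums of 2531 and 5233 (differences of 0.55 and 1.51), and the 2 endothelial ones 1508 and 2590 (0.14 and 0.35). Of 4 neural miRNAs, for a tissue where the locus is known to be active, miR-128-3p alone was well above background (-0.48), and miR-124-3p, miR-9-5p and miR-138-5p were not on either array. The part of these shifts in the values of miR-494-3p, miR-1188-3p and miR-134-5p was not tested, and in whole tissue fewer cells of a type and less RNA per cell cannot be told apart.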

How the data were processed

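Total RNA from peeled knee cartilage was labelled with Cy3 and hybridised to 1-colour arrays, both on 1 slide, so group and slide position cannot be told apart. Per the submitters' processing notes and the file headers, Agilent Feature Extraction 10.7 wrote the deposited background-subtracted intensity of each spot, its raw mean and local background intensity, marks (well above background, saturated, outlier, detected) and totals per probe and miRNA, unscaled between arrays. The submitters also deposited log2 values per miRNA, but the sources used here do not give how. Their column medians, which are also their floors, were -3.26 for control and -3.32 for the knockout. Their differences correlated with those of the software's probe totals (Pearson r = 0.90 over 303 miRNAs), which bears on the direction, and their levels rose by 1.06 (control) and 1.02 (knockout) per log2 unit of those totals, which bears on the scale. Their scaling and centring stay unknown.

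Outlier spots were dropped, log2 intensities averaged over the spots of a probe, each array scaled to the 75th percentile of the 476 probes detected in both samples, and probes averaged per miRNA. Errors are SEs over spots and hold technical noise alone, and the number of arrays limits the precision. An absolute log2 difference of 1 was a threshold for counts only. Named were all members detected on at least 1 array, the 10 next by share of marked spots (ties by signal) and those nearest the rule. Alternatives covered scaling, background correction (limma 3.58.1 in R 4.3.3, normexp with offset 50), summary signal, detection rule and spot filters. The members and lists were chosen with earlier results of these data known. The steps ran in Python 3.11.15 with pandas 2.3.3. The scaled differences were tested on a copy of the control array with simulated shifts. The spot marks of that copy were left unchanged, so the detection counts and bounds were not tested. Sequences and positions are those of RefSeq for GRCm38.p6, matched by name for 99 members.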

Additional observations from a re-analysis of the deposited data

How the results depend on the processing

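The counts of members detected on both arrays, in the knockout alone and in the control alone (5, 5 and 2) were 3, 3 and 0 when every spot had to be marked, 6, 6 and 1 with 1 spot in 4, 24, 6 and 1 with the software's mark for a positive and significant spot, 11, 5 and 0 with its detection mark per miRNA, and 1, 2 and 0 when all probes of a miRNA had to pass. With the control array's unscaled threshold on both arrays they were 5, 3 and 2, and with that threshold after scaling 3, 0 and 4, both added after the data were seen. Keeping outlier spots left all 3 counts as they were. The median difference of -0.08 became 0.35 when scaled at the 75th percentile of every probe, 0.032 with median scaling, 0.18 with quantile normalization, 0.33 with no scaling, 0.28 with scaling to 4 spike-in probes and 0.042 with normexp and quantile normalization. It was -0.28 with the software's gene totals, 0.067 with the sum of its probe totals (also added after the data were seen) and 0.015 with the deposited log2 values, each over 11 members. Under the other 5 settings it lay between -0.08 and -0.06. The cause was not tested. No paired analysis was possible because there is 1 array per group. No replicate could be left out for the same reason. Apart from miR-494-3p, the best-probe medians of the detected members were at most 62.0, near the thresholds of 21.9 and 20.3, so these counts rest on small differences in intensity.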

Other observations

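The software's total per miRNA exceeded the sum of its own probe totals by more than 1 unit for 6 members in the control and 9 in the knockout. For miR-300-3p on the control array the total was 281 and the sum of probe totals 12.9, while on the knockout array both were 17.7. For miR-136-5p on the control array they were 368.9 and 8.33, and for miR-379-5p on the knockout array 86.6 and 12.6. The software marked 11 members as detected in the control and 16 in the knockout.

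In the deposited log2 values, 11 members were above the floor on both arrays, 5 in the knockout alone and 0 in the control alone. miR-134-5p was at the floor on the control array and at 4.14 on the knockout array, and miR-379-5p at the floor and at 3.24. miR-434-3p, counted above on the knockout array alone, was at 2.95 on both. miR-494-3p was at 11.42 and 10.12, and miR-1188-3p at 3.63 and 2.58.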
